A study of Mus musculus with 12 samples.

Results

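Oxidative phosphorylation is run by 5 protein complexes of the inner mitochondrial membrane, most of whose subunits are encoded in the nucleus. The genes described here are the nuclear subunits whose symbols begin with Nduf, then a, b, c, s or v and a digit (complex I), Uqcr (complex III), Cox4 to Cox8, then a, b or c (complex IV) or Atp5 (complex V), leaving out symbols that end in -ps. The symbol rule took 80 of the 25124 genes in the count table, and the 76 with at least 100 counts summed over the 12 libraries are the members: 37 of complex I, 8 of complex III, 14 of complex IV and 17 of complex V. Cox7b2 (57 counts in all), Ndufb4c (13), Ndufa11b (2) and Cox8c (0) fell below that minimum. The rule does not take Ndufab1, Cyc1, Cox4i1, Cox4i2 or the Sdh genes of complex II, which were kept as lists beside the members. Ndufa4 is counted with complex I by its name, although the protein is now placed in complex IV.

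The libraries were made from brain hemispheres of mice 28 days after middle cerebral artery occlusion (MCAo), a model of ischemic stroke, in a study of dickkopf-1 (DKK1), a secreted protein that blocks Wnt receptors. DKK1 mice carried rtTA and EGFP at Gt(ROSA)26Sor, tetO-Dkk1 at Hprt and the reporter Tg(TCF/Lef1-lacZ), and wild-type (WT) mice were C57BL6/J; a transgenic group without induction is not analysed here. Mice of both genotypes received doxycycline (200 mg/kg) and were induced from day 3 after MCAo, so the drug itself was common to all groups. The 4 groups of 3 libraries are the lesioned (ipsilateral) hemisphere of DKK1 and of WT mice and the intact (contralateral) hemisphere of DKK1 and of WT mice. The labels do not tie libraries to separate animals, so p-values measure the spread between these libraries, which may be partly technical.

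Complex I takes electrons from NADH, complex III passes electrons from ubiquinol to cytochrome c, complex IV hands them to oxygen, and complex V is the ATP synthase. Neurons depend on this pathway for most of their ATP, and its nuclear subunits are known to be transcribed with shared factors that include NRF1, GABPA (also called NRF-2), YY1 and ESRRA (ERR alpha). Complex IV also has paired forms of some subunits, one found in most tissues and one restricted mainly to heart, skeletal muscle or testis.

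Library totals ran from 21209920 to 26911840 counts, of which the members held 0.414% to 0.472%. Dkk1 had 32, 7 and 44 counts in lesioned DKK1 libraries and 13, 5 and 4 in intact DKK1 libraries, against 0 in each of the 6 WT libraries. On the first principal component (73.8% of variance), lesioned WT library 1 (70.9) lay among the lesioned DKK1 libraries (62.8 to 83.8) and away from the other lesioned WT libraries (29.2 and 37.1). Intact WT library 1 (-41.2) lay apart from the other intact WT libraries (-72.6 and -63.3). Results that rest on these libraries are given without them.

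Promoters are shown first because the members are known for shared promoter elements. RefSeq promoters (GRCm38.p6, 250 bases before to 50 bases after the start) were matched for 64 of the 76 members. They were searched on both strands for an NRF1 core (GCATGCGC), a GABPA site (CCGGAAGT), a YY1 site (AAGATGGCG) and an ESRRA site (TCAAGGTCA), and 0 promoters had matches of different strings that overlapped. At least 1 of them stood in 21 members (32.8%), against 8.93% of the 27025 genes and 7.99% of the 32851 promoters in the table. The NRF1 core stood in 14.1% of members and 3.05% of all genes, the YY1 string in 10.9% and 1.64%, the GABPA string in 7.81% and 4.31%, and the ESRRA string in 1.56% and 0.466%. Of all promoters, 2.71% held the NRF1 core, 1.4% the YY1, 3.89% the GABPA and 0.423% the ESRRA string. Among members that fell in at least 1 lesion comparison below, 10 of 29 (34.5%) held a string, and among the others 11 of 35 (31.4%). A match is a run of letters and not a measured binding site, and no match says only that these letters are absent from the window. The promoters below belong to Cox6a1 and Ndufs4, which were lower in the lesioned hemisphere of both genotypes, and to Cox6b2 and Cox8b. Cox6b2 was higher there in both genotypes. Cox8b had the largest rise in WT mice and no call in DKK1 mice. Cox6a1 and Ndufs4 were picked because they hold a string, so these sequences do not compare falling with rising genes. Of the other members lower in both genotypes, Ndufs3 held the GABPA string. Ndufa4, Ndufb6, Ndufv1, Ndufv2 and Uqcrfs1, also lower in both, held none of the strings. Capitals mark a matched string on either strand.
Cox6a1 (chr5:115348909-115349208, minus strand, NRF1 core): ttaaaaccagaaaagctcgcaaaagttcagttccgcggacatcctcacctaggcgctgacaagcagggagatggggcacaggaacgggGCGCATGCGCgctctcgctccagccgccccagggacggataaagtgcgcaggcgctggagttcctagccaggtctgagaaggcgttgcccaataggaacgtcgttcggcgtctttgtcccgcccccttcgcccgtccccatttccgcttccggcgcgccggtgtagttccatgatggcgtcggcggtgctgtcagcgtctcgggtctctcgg
Ndufs4 (chr13:114388045-114388344, minus strand, YY1 string): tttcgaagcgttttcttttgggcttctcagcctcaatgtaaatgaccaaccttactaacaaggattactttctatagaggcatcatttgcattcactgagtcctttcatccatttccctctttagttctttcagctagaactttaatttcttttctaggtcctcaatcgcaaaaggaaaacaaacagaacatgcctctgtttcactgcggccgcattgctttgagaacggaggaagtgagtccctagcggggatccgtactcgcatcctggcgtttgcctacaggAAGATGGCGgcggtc
Cox6b2 (chr7:4753045-4753344, minus strand, no string): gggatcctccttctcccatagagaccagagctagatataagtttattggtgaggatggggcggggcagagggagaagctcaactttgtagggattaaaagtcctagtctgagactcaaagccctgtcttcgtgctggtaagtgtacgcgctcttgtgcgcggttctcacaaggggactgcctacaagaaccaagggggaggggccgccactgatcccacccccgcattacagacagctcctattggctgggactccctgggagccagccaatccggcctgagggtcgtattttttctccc
Cox8b (chr7:140900397-140900696, minus strand, no string): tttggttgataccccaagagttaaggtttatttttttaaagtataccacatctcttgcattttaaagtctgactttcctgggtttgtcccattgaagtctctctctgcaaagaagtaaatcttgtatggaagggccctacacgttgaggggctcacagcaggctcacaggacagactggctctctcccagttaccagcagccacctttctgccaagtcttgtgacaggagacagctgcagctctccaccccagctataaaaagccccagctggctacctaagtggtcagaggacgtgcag

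Levels differed widely between members within a complex. On a length-scaled scale (TPM, computed from the deposited counts and transcript lengths), complex IV held both the highest and the lowest member: Cox8a, a small structural subunit, averaged 706 over the 12 libraries, and Cox7a1, the muscle form of subunit 7a, averaged 8.54. In complex V the catalytic beta subunit Atp5b was highest at 442 and Atp5l, subunit g, lowest at 20.6. Ndufa4 led the genes named for complex I at 422, while its paralog Ndufa4l2, a known hypoxia-inducible gene, averaged 11.5. Complex III ran from 127 for Uqcrq to 364 for Uqcrh, the hinge protein beside cytochrome c1. The median member stood at 183 in complex I, 218 in complex III and 208 in complex IV, and higher in complex V. For Uqcrq, Ndufa11 and Ndufv3 the transcript in the table is long for the gene, so their length-scaled levels depend on that choice.

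Taken over all 76 members, the lesioned hemisphere was lower in both genotypes, and DKK1 libraries stood above WT libraries on both sides. CPM are counts scaled to a library of 1000000. The median over members of log2(CPM + 0.5), each gene taken relative to its mean in the intact WT libraries, was -0.05, -0.03 and -0.08 in lesioned DKK1 libraries and -0.17, -0.10 and -0.10 in lesioned WT libraries. It was 0.10, 0.04 and 0.12 in intact DKK1 libraries and -0.06, 0.03 and 0.02 in intact WT libraries. Within each genotype the lesioned libraries lay below the intact ones, with no overlap. Intact WT library 1 lay within the range of the lesioned DKK1 libraries. Each of the 4 complexes gave the same order of group means.

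**Figure D1:**
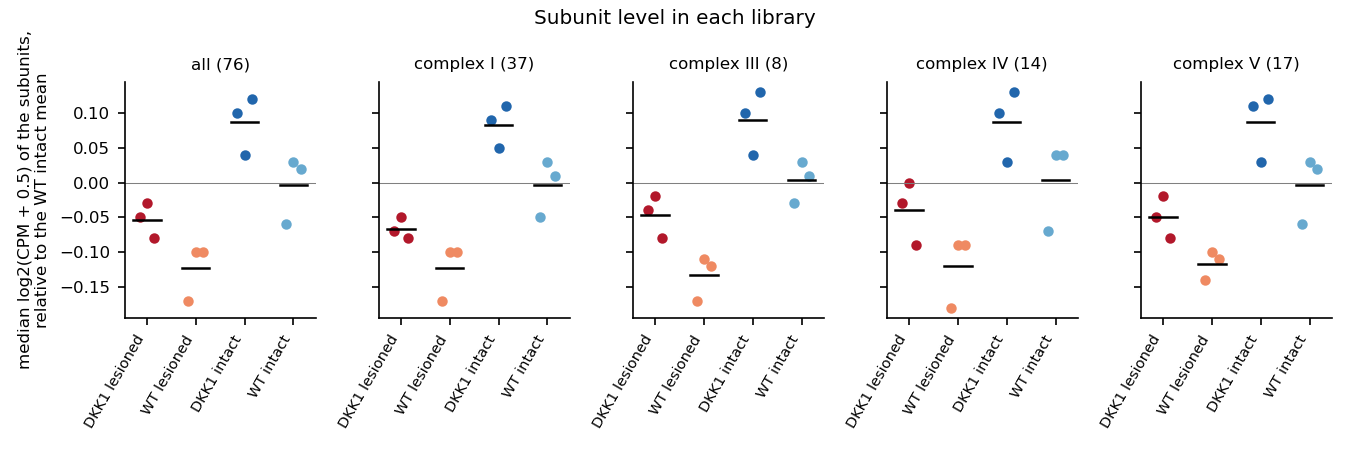
Each panel plots the median over subunits of log2(CPM + 0.5), each gene relative to its mean in the intact WT libraries, with 1 point per library and a bar at the group mean; numbers in brackets are genes per panel. Over all 76 subunits, DKK1 lesioned (-0.08 to -0.03) and WT lesioned (-0.17 to -0.10) lay below DKK1 intact (0.04 to 0.12) and WT intact (-0.06 to 0.03) within each genotype.

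The lesion comparison asks how the subunit genes stood in the damaged hemisphere 28 days after the stroke. In DKK1 mice 30 of 76 members were lower and 3 higher in the lesioned hemisphere (edgeR's quasi-likelihood test, adjusted p under 0.05 over 17612 genes). The lower calls were 39.5% of members, against 22.6% of all genes, and the higher ones 3.95%, against 27.5%. In WT mice 16 members were lower and 2 higher. These lower calls were 21.1% of members, not far from the 15.9% of all genes, and the higher ones 2.63%, against 21.2%. The typical shift was small. The median log2 fold change of the members was -0.14 in DKK1 mice and -0.12 in WT mice, where the median of all genes was 0.01 in each. Of the members, 63 were below 0 in DKK1 mice and 70 in WT mice, and all 63 were below 0 in both. In 46 members (60.5%) every lesioned DKK1 library was below every intact DKK1 library, against 27.8% of all genes; in WT mice the number was also 46, against 23.8% of all genes.

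The count of calls in WT mice rested on single libraries, while the median did not. Leaving out 1 library at a time gave 1 lower member without intact WT library 2, 2 without lesioned WT library 1 and 4 without intact WT library 3, with medians of -0.16 to -0.10 over all 12 leave-outs. In DKK1 mice the count was 14 without lesioned DKK1 library 3. Libraries with the same number within a genotype deviated together, which the main test does not take into account. With genotype-by-number blocks the lower members numbered 34 in DKK1 mice and 25 in WT mice as fixed terms, and 43 and 36 as a random term in limma-voom. On the deposited TPM, 2 members were higher and 7 lower in WT mice. The difference between the lesion effects of the genotypes passed for no member (0 higher, 0 lower; 0.00568% and 0% of all genes), with 1 member at an unadjusted p under 0.05 and none past the threshold by DESeq2 or limma-voom either. The smallest p belonged to Ndufb2 (interaction -0.25 ± 0.09, SE, adjusted p = 0.467), Uqcrq (0.15), Atp5l (0.45), Uqcrc2 (-0.14) and Ndufa11 (-0.13).

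Complex I, the largest set, had the most lower members. They were 16 of 37 in DKK1 mice (43.2%, against 22.6% of all genes) and 11 of 37 in WT mice (29.7%, against 15.9%). Its core subunits carry the flavin and the iron-sulfur clusters, and of those encoded in the nucleus Ndufs1, Ndufs3, Ndufv1 and Ndufv2 fell in both genotypes. Of the 30 members named for complex I outside the core, 11 fell in DKK1 mice and 7 in WT mice. These are mostly accessory subunits, but Ndufa4, which fell in both genotypes, and Ndufa4l2 are among the 30. This grouping by role, and those of complexes III and V below, were made with the values known.

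Ndufs4, an accessory subunit whose loss causes a mitochondrial encephalopathy in mice, was the largest fall shared by both genotypes in complex I. It stood at 46.4, 47.3 and 41.4 CPM in lesioned DKK1 libraries, against 53.3, 53.9 and 54.7 CPM in intact DKK1 libraries. In WT mice it stood at 42.1, 44.0 and 45.6 CPM in lesioned libraries and 47.8, 52.1 and 50.6 CPM in intact ones. In neither genotype did the hemispheres overlap. The log2 fold change was -0.26 ± 0.06 (SE, edgeR adjusted p = 0.00365) in DKK1 mice and -0.19 ± 0.06 (edgeR adjusted p = 0.0266) in WT mice.

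Ndufb2, an accessory subunit of the membrane arm, had the lowest log2 fold change of any member in DKK1 mice. It stood at 18.5, 18.1 and 17.3 CPM in lesioned DKK1 libraries, against 24.6, 22.0 and 22.9 CPM in intact DKK1 libraries, a log2 fold change of -0.37 ± 0.07 (edgeR adjusted p = 0.000846). The lesioned WT libraries had 19.1, 20.1 and 19.4 CPM and the intact WT libraries 20.6, 21.3 and 21.5 CPM, which did not pass the test. A predicted gene, Gm42420, overlaps Ndufb2 on the same strand, and reads of the overlap cannot be assigned to either.

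Ndufs1, the largest core subunit, stood at 127, 124 and 113 CPM in lesioned DKK1 libraries, against 148, 138 and 148 CPM in intact DKK1 libraries (log2 fold change -0.26 ± 0.05, edgeR adjusted p = 0.00234). It also fell in WT mice, by 0.16 on the log2 scale (edgeR adjusted p = 0.0414). Ndufs5, at -0.19 ± 0.08 in WT mice, missed the threshold. Among complex I members past it, the largest falls in WT mice next to Ndufs4 were Ndufa10 (-0.18 ± 0.05), Ndufa8 (-0.18 ± 0.04) and Ndufs3 (-0.18). Ndufa8 had 54.0, 53.6 and 57.7 CPM in lesioned WT libraries and 62.1, 61.7 and 63.4 CPM in intact WT libraries. It was the only one of the 8 falls named in WT mice that passed whichever library was left out. Without intact WT library 2 the other 7 missed the threshold, and without lesioned WT library 1 all but Ndufa8 and Uqcrq did. Of the 12 falls named in DKK1 mice, 8 passed in every leave-out: Ndufb2, Ndufs1, Ndufs4, Uqcrc1, Uqcrc2, Atp5a1, Atp5g3 and Atp5md.

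**Figure D2:**
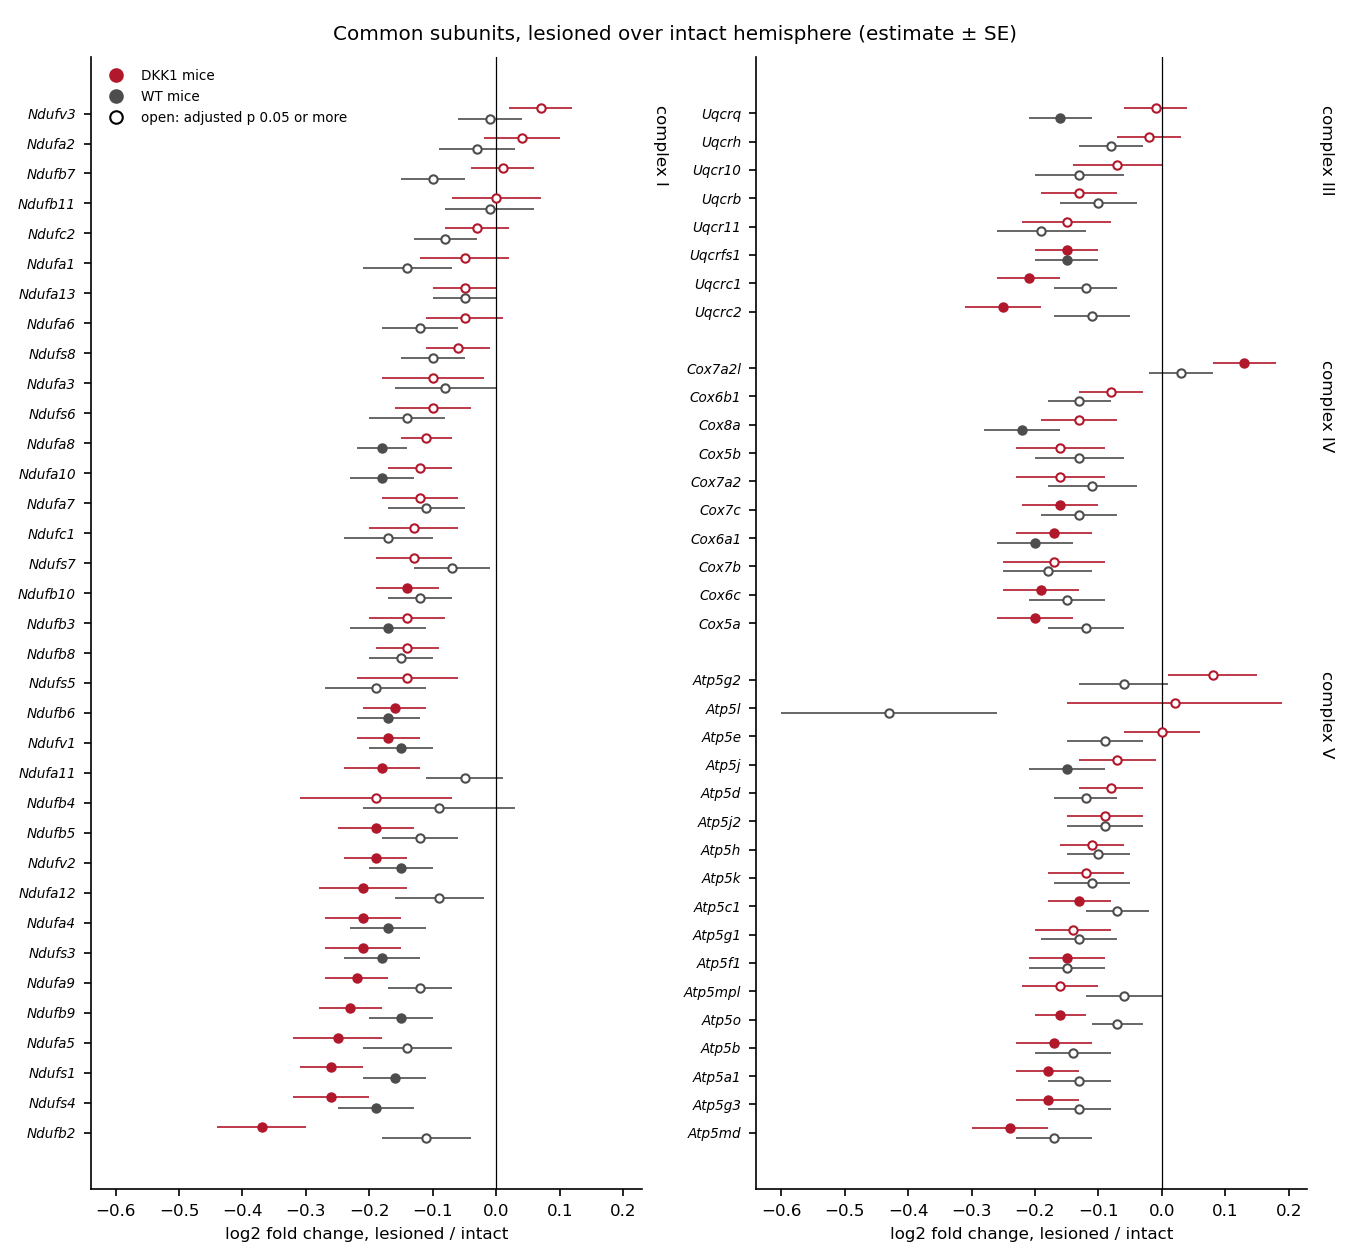
Log2 fold change of lesioned over intact hemisphere for 70 of the members, with Cox6a2, Cox6b2, Cox7a1, Cox8b and Ndufa4l2 among those left out, and with 1 SE, in DKK1 mice (red) and WT mice (grey); filled points have an adjusted p under 0.05. Most points lie between -0.30 and 0, and Ndufb2 in DKK1 mice (-0.37) and Atp5l in WT mice (-0.43, open) lie farthest to the left.

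In complex III the core proteins and the small subunits differed in their calls. In DKK1 mice Uqcrc2 (-0.25 ± 0.06, edgeR adjusted p = 0.00428), Uqcrc1 (-0.21 ± 0.05) and Uqcrfs1 (-0.15 ± 0.05) fell; the first pair are the core proteins and Uqcrfs1 is the Rieske iron-sulfur protein. Of the 5 small subunits 0 passed there by edgeR, DESeq2 or limma-voom, with log2 fold changes of -0.15 to -0.01 and 2 at an unadjusted p under 0.05. Uqcrc2 stood at 87.9, 88.5 and 77.0 CPM in lesioned DKK1 libraries, against 99.7 to 101 CPM in intact DKK1 libraries. In WT mice Uqcrfs1 (-0.15 ± 0.05) and the small subunit Uqcrq (-0.16 ± 0.05, edgeR adjusted p = 0.0219) fell. Whether core and small subunits differ was not tested.

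In complex IV, 4 of 14 members were lower in DKK1 mice (28.6%, against 22.6% of all genes): Cox5a, Cox6c, Cox6a1 and Cox7c. In WT mice 2 were lower, Cox8a and Cox6a1, a share of 14.3% that was near the 15.9% of all genes. Cox6a1, the common form of subunit 6a, stood at 94.9, 96.4 and 95.9 CPM in lesioned DKK1 libraries, against 103, 105 and 115 CPM in intact DKK1 libraries. In lesioned WT libraries it had 82.3, 89.0 and 93.0 CPM, against 95.3, 106 and 103 CPM in intact WT libraries. The log2 fold change was -0.17 ± 0.06 in DKK1 mice and -0.20 ± 0.06 in WT mice (edgeR adjusted p = 0.0379 and 0.0207 in that order). Cox8a fell in WT mice by 0.22 on the log2 scale (SE 0.06, edgeR adjusted p = 0.0192) and had -0.13 in DKK1 mice, which missed the threshold. Without lesioned DKK1 library 3 the calls of Cox5a, Cox6c, Cox6a1 and Uqcrfs1 in DKK1 mice were lost, that of Cox6a1 also without lesioned DKK1 library 1 or 2 or intact DKK1 library 3, and that of Uqcrfs1 also without lesioned DKK1 library 2.

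Complex V had 7 of 17 lower members in DKK1 mice (41.2%, against 22.6% of all genes) and 1 in WT mice (5.88%, against 15.9%) by edgeR, while DESeq2 called 10 and 7 and limma-voom 7 and 0. In DKK1 mice Atp5md (-0.24 ± 0.06, edgeR adjusted p = 0.00887), a small membrane subunit also called DAPIT, was lowest, followed by the alpha subunit Atp5a1 (-0.18 ± 0.05) and Atp5g3 (-0.18 ± 0.05), 1 of the 3 genes for the c ring. In the F1 head, which makes the ATP, 3 of 5 members fell in DKK1 mice (Atp5a1, Atp5b and the gamma subunit Atp5c1), while in WT mice the 5 had log2 fold changes of -0.14 to -0.07 with 0 calls in edgeR and limma-voom, 3 in DESeq2 and 3 at an unadjusted p under 0.05. Atp5md stood at 28.3, 27.1 and 25.5 CPM in lesioned DKK1 libraries, against 32.2, 31.0 and 32.0 CPM in intact DKK1 libraries. Atp5j, coupling factor 6, was the member that fell in WT mice (-0.15 ± 0.06, edgeR adjusted p = 0.048), and it missed the threshold in 8 of 12 leave-outs. Atp5l had the lowest value in WT mice without passing: 2.77, 2.26 and 3.01 CPM in lesioned WT libraries and 3.75, 3.12 and 3.97 CPM in intact WT libraries (-0.43 ± 0.17, edgeR adjusted p = 0.0688). An antisense gene overlaps Atp5l, and whether counting used strand is not stated.

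The calls of the genotypes overlapped in part. Lower in both were 10 members: Ndufa4, Ndufb6, Ndufb9, Ndufs1, Ndufs3, Ndufs4, Ndufv1, Ndufv2, Uqcrfs1 and Cox6a1. They are 33.3% of the 30 lower members of DKK1 mice and 62.5% of the 16 of WT mice. Across the 71 members without the restricted forms, the log2 fold changes of the genotypes, which come from different libraries, correlated at r = 0.30 and rho = 0.35, as a description over genes that share libraries. In 36 members no call was made in either genotype.

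A few complex IV genes went the other way. The members higher in the lesioned hemisphere were Cox6b2, Cox7a1 and Cox7a2l in DKK1 mice and Cox6b2 and Cox8b in WT mice. Cox6b2, Cox7a1 and Cox8b are the forms restricted in other tissues (testis for Cox6b2, heart and skeletal muscle for Cox7a1 and Cox8b), and Cox7a2l is a factor of respiratory supercomplexes. Each restricted form remained far below its common partner.

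Cox6b2 was the one member called higher in both genotypes. It had 137, 114 and 204 counts (5.36, 4.70 and 7.60 CPM) in lesioned DKK1 libraries, against 49, 53 and 58 counts (2.40, 2.17 and 2.53 CPM) in intact DKK1 libraries. In lesioned WT libraries it had 150, 103 and 112 counts (5.61, 4.08 and 4.26 CPM), against 48, 45 and 48 counts (1.80, 1.92 and 2.03 CPM) in intact WT libraries. Every lesioned library was above every intact one. The log2 fold change was 1.32 ± 0.20 (edgeR adjusted p = 0.000294) in DKK1 mice and 1.28 ± 0.21 (edgeR adjusted p = 0.000815) in WT mice, with 1.09 to 1.45 and 1.12 to 1.36 over the leave-outs, all past the threshold. Its partner Cox6b1 was at 60.3, 58.9 and 56.7 CPM in lesioned DKK1 libraries and 62.8, 60.2 and 63.0 CPM in intact DKK1 libraries. In WT mice Cox6b1 had 51.9, 54.0 and 55.0 CPM in lesioned libraries and 56.4, 59.4 and 60.4 CPM in intact ones; neither difference passed. Cox6b2 made up 7.49% ± 1.98 of the length-scaled subunit 6b transcripts in lesioned DKK1 libraries and 2.98% ± 0.153 in intact DKK1 libraries (SD, n = 3 each). The WT values were 6.53% ± 1.27 in lesioned and 2.56% ± 0.0629 in intact libraries (SD, n = 3 each).

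Cox8b passed only in WT mice, and its level differed within groups. It had 93, 49 and 19 counts in lesioned WT libraries, against 16, 3 and 14 in intact WT libraries (log2 fold change 2.19 ± 0.73, edgeR adjusted p = 0.0348). In DKK1 mice it had 20, 19 and 85 counts in lesioned libraries, against 15, 28 and 18 in intact libraries (0.83 ± 0.69, edgeR adjusted p = 0.342). The groups overlapped in DKK1 mice, where library 3 alone was high, and without it the value was -0.19. The call in WT mice was lost without any 1 of lesioned libraries 1 and 2 and intact libraries 1, 2 and 3 (1.57 to 2.49), and the interaction did not pass (-1.37 ± 1.01, edgeR adjusted p = 0.715).

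The libraries high in Cox8b were those high in markers of the choroid plexus, the epithelium that makes cerebrospinal fluid. The summed CPM of 7 such markers (Ttr, Kl, Folr1, Clic6, Kcne2, Kcnj13, Otx2) was 195, 222 and 444 in lesioned DKK1 libraries and 426, 350 and 227 in lesioned WT libraries. In intact libraries it was 130.0, 203 and 149 in DKK1 mice and 152, 79.0 and 146 in WT mice. The libraries with 93, 85 and 49 Cox8b counts had 426, 444 and 350 CPM of the markers, and intact WT library 2, with 3 counts, had the lowest sum (79.0 CPM). All 7 markers were higher in the lesioned hemisphere of WT mice (median log2 fold change 1.97) and 1 of 7 in DKK1 mice (1.21); none was at 0 counts in all libraries. The sum of skeletal muscle markers did not follow this order. Their summed CPM was 20.0 to 24.7 in lesioned DKK1 libraries, 16.6 to 17.6 in lesioned WT libraries, 18.9 to 26.4 in intact DKK1 libraries and 17.9 to 20.3 in intact WT libraries. The muscle marker Tnni2 nevertheless rose in the lesioned hemisphere (3.03 ± 0.5 in WT mice and 3.82 ± 0.51 in DKK1 mice). In edgeR, 1 muscle marker was called higher in WT mice and 2 in DKK1 mice, with 0 lower. The tested muscle markers had median log2 fold changes of -0.1 and -0.05 in that order, with 5 above 0 and 5 below 0 in each genotype. The part of choroid plexus RNA or muscle RNA in the Cox8b values was not tested.

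Cox7a1, the muscle form of subunit 7a, had 20, 34 and 47 counts in lesioned DKK1 libraries, against 16, 20 and 13 in intact DKK1 libraries (0.86 ± 0.33, edgeR adjusted p = 0.0472). The groups met at 20 counts, the call was lost with the fixed replicate block (adjusted p = 0.0661 by edgeR), and it held in 2 of 12 leave-outs. In WT mice it had 36, 25 and 22 counts in lesioned libraries and 20, 18 and 22 in intact ones, with no call. Cox7a2l stood at 79.3, 83.9 and 82.8 CPM in lesioned DKK1 libraries, against 70.7, 74.9 and 78.8 CPM in intact DKK1 libraries (0.13 ± 0.05, edgeR adjusted p = 0.0436), and its call also held in 2 of 12 leave-outs.

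Cox6a2, the muscle form of subunit 6a, which in mouse brain is also known from parvalbumin interneurons, had no call. It had 130, 136 and 175 counts in lesioned DKK1 libraries and 103, 130 and 133 in intact DKK1 libraries, and 205, 120 and 141 in lesioned WT libraries against 130, 111 and 149 in intact ones. The 5 fast-spiking interneuron markers were all lower in DKK1 mice and 4 of 5 in WT mice, with median log2 fold changes of -0.51 and -0.35. Without lesioned library 1 the sign of Cox6a2 in WT mice turned (-0.07), and without lesioned library 3 that in DKK1 mice did (-0.01). Ndufa4l2 had 119, 106 and 111 counts in lesioned DKK1 libraries, against 64, 86 and 73 in intact DKK1 libraries (0.42 ± 0.19, edgeR adjusted p = 0.0862). With the replicate block this passed (edgeR adjusted p = 0.0453 as fixed terms). In WT mice it had 118, 67 and 95 counts in lesioned libraries and 84, 57 and 65 in intact ones, which overlapped.

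**Figure D3:**
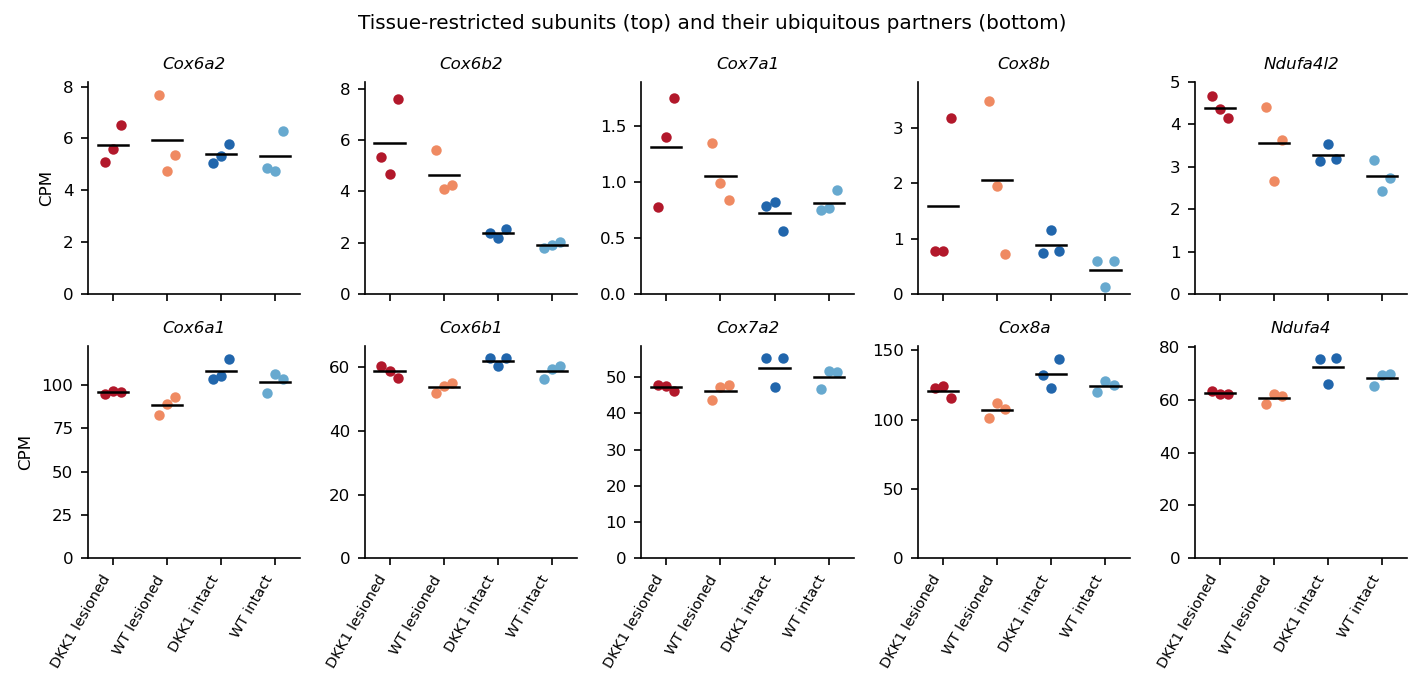
CPM per library of 5 restricted subunit forms (top row) and their common partners (bottom row), with 1 point per library and a bar at the group mean; axes start at 0. Cox6b2 is higher in all lesioned libraries than in intact ones, while Cox8b is high in DKK1 lesioned library 3 and WT lesioned libraries 1 and 2.

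Genes of neighbouring pathways are given beside the same background, 22.6% of all genes lower in DKK1 mice and 15.9% in WT mice. In DKK1 mice 13 of 15 citrate cycle genes (86.7%) were lower (median log2 fold change -0.18, largest fall Sucla2 at -0.37) and in WT mice 6 of 15 (40.0%, median -0.12). Both other complex III and cytochrome c genes fell in each genotype, with cytochrome c itself (Cycs) at -0.30 ± 0.06 in DKK1 mice and -0.24 ± 0.06 in WT mice. Of 15 complex I assembly factors 5 were lower in DKK1 mice and 4 in WT mice, and of 32 assembly factors of the other complexes 9 (28.1%) and 5 (15.6%), near the background, with 1 higher in each genotype (Coa4, 0.88 and 0.83). Of 4 complex II subunits 2 were lower in DKK1 mice (median -0.08), and in WT mice the median was -0.03. Of the 2 further complex IV subunits, Cox4i1 fell in DKK1 mice (-0.17 ± 0.06). The ATP synthase inhibitor Atpif1 fell in both (-0.14 in DKK1 mice and -0.21 in WT mice). The gene 1810058I24Rik, put in the same list without a checked link to ATP synthase, rose (0.93 in DKK1 mice and 0.65 in WT mice). Among 17 glycolysis genes 10 were lower and 1 higher in DKK1 mice and 5 lower and 1 higher in WT mice. The one that rose was Hk2, a hexokinase (2.75 ± 0.17 in DKK1 mice and 2.11 ± 0.17 in WT mice).

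Among 12 regulators of mitochondrial biogenesis, 3 were lower and 2 higher in DKK1 mice and 2 lower in WT mice. Both lower shares were near those of all genes (22.6% in DKK1 mice and 15.9% in WT mice). The share higher in DKK1 mice was below the 27.5% of all genes. Ppargc1b, a coactivator of ESRRA, fell in both (-0.46 ± 0.10 in DKK1 mice and -0.31 ± 0.10 in WT mice). Gabpa, whose site is among the strings searched above, rose in DKK1 mice (0.25 ± 0.06, edgeR adjusted p = 0.0059). Gabpa overlaps the member Atp5j on the opposite strand. Of 16 outer membrane and carrier genes 6 were lower in DKK1 mice (37.5%) and 5 in WT mice (31.2%), with Tomm70a lowest in both (-0.48 and -0.36).

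Markers of several cell types also differed between the hemispheres. Neuron markers were lower for 15 of 15 genes in DKK1 mice (median log2 fold change -0.43) and 12 of 15 in WT mice (-0.33). Their summed CPM was 5622 to 6300.0 in lesioned DKK1 libraries and 5392 to 6705 in lesioned WT libraries, against 7616 to 8321 in intact DKK1 libraries and 7703 to 7932 in intact WT libraries. The members' summed CPM was 4196 to 4379 and 3982 to 4172 in lesioned DKK1 and WT libraries, against 4558 to 4844 and 4316 to 4590.0 in intact ones. The median change of the members was thus smaller than that of the neuron markers. Microglia and macrophage markers were higher for 11 of 11 genes in DKK1 mice and 10 of 11 in WT mice (medians 2.44 and 2.18), and 6 of 6 fibroblast and 6 of 7 oligodendrocyte markers were higher in each genotype. Lymphocyte markers were higher for 8 of 9 genes in each, ependymal markers for 3 of 6 in DKK1 mice and 6 of 6 in WT mice, endothelial and mural markers for 6 and 4 of 10, and astrocyte markers for 5 and 4 of 8. The remaining lymphocyte marker, Cd4, was lower in both genotypes (-1.03 in DKK1 mice and -1.47 in WT mice). The astrocyte marker Slc1a2 was lower in DKK1 mice (-0.26). In bulk tissue, fewer neurons and less subunit RNA per neuron cannot be told apart, and the part of cell composition in the members' values was not tested.

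**Figure D4:**
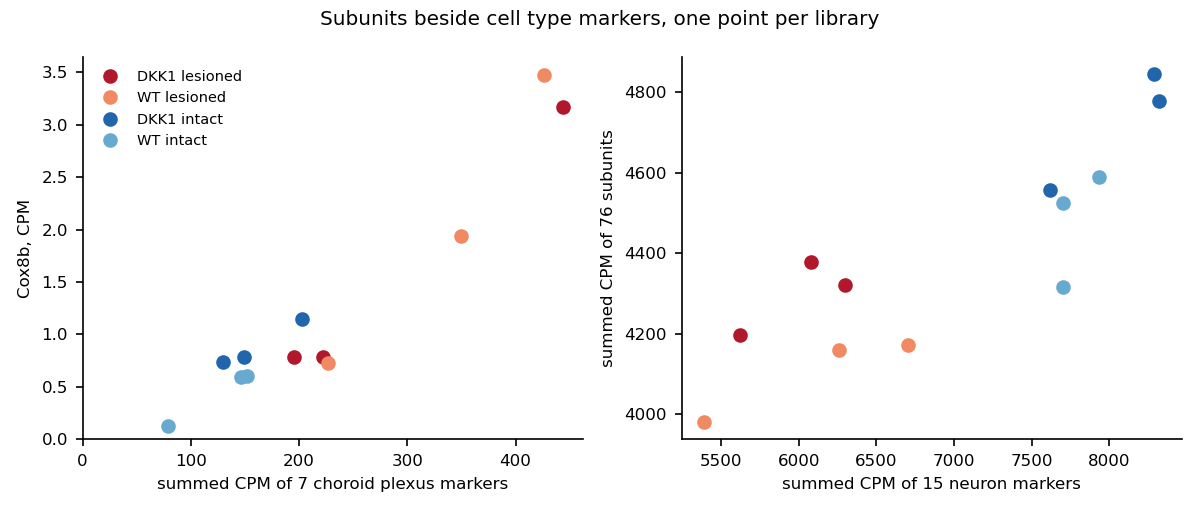
Left, Cox8b CPM against the summed CPM of 7 choroid plexus markers; right, summed CPM of the 76 subunits against that of 15 neuron markers (axes of the right panel do not start at 0); each point is a library, coloured by group. The 3 libraries with the most Cox8b also have the highest choroid plexus sums (350 to 444 CPM), and lesioned libraries lie at 5392 to 6705 CPM of neuron markers, against 7616 to 8321 in intact ones.

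The genotype comparison asks how DKK1 mice differed from WT mice in each hemisphere. DKK1 mice also differed from the C57BL6/J WT mice by rtTA and EGFP, the insertion at Hprt and the lacZ reporter. Without the uninduced transgenic group, induced DKK1 cannot be told apart from these transgenes or from strain background. In the lesioned hemisphere 1 member was higher in DKK1 mice (1.32% of members, against 1.52% of all genes) and 0 lower (0.846% of all genes), so the share of calls was that of the table as a whole. No member was lower by DESeq2 or limma-voom, which called 2 higher each, and 19 had an unadjusted p under 0.05 in edgeR. The members nevertheless leaned upward: 64 of 76 were above 0, the median log2 fold change was 0.07, against 0.02 for all genes, and in 26 members (34.2%) every DKK1 library was above every WT library, against 13.3% of all genes. Under upper-quartile scaling the medians were 0.04 for members and -0.01 for all genes, and on the deposited TPM 0.03 and -0.02. Without lesioned WT library 1 they were 0.05 and 0.03. Without any 1 of the 3 intact DKK1 libraries or intact WT library 3 the members' median was 0.04, with that of all genes at or just under 0.

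Uqcrq, a small complex III subunit next to the ubiquinone site, was the member that passed. It stood at 64.3, 64.6 and 66.1 CPM in lesioned DKK1 libraries, against 55.8, 52.9 and 55.7 CPM in lesioned WT libraries (log2 fold change 0.25 ± 0.05, edgeR adjusted p = 0.0257). The groups did not overlap. The call was lost in 6 of 12 leave-outs and when only these 6 libraries were fitted, with values of 0.22 to 0.26 in the leave-outs. Next by p in the other complexes were Ndufa6 (0.25 ± 0.06, edgeR adjusted p = 0.0578), Atp5e, the epsilon subunit of the F1 head (0.22 ± 0.06, edgeR adjusted p = 0.0861), and Cox8a (0.18 ± 0.06, edgeR adjusted p = 0.14). Ndufa6 had 45.4, 48.7 and 48.8 CPM in lesioned DKK1 libraries and 38.2, 40.6 and 41.7 CPM in lesioned WT libraries, with no overlap. It passed by DESeq2 and limma-voom.

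In the intact hemisphere no member was called in either direction by edgeR, DESeq2 or limma-voom, against 0.369% of all genes higher and 0.511% lower in edgeR, and 6 members had an unadjusted p under 0.05. Still, 71 of 76 members were above 0 and the median log2 fold change was 0.09, against 0.00 or just under it for all genes. In 23 members (30.3%) every intact DKK1 library was above every intact WT library, against 5.84% of all genes. Without intact WT library 1 the median was 0.05. The smallest p in each complex belonged to Ndufa13 (0.16 ± 0.05, edgeR adjusted p = 0.331), Atp5o (0.14 ± 0.04, edgeR adjusted p = 0.282), Uqcrq (0.10 ± 0.05) and Cox6c (0.11 ± 0.06). Atp5o, the stalk subunit that holds the F1 head (OSCP), stood at 84.3, 82.0 and 80.3 CPM in intact DKK1 libraries and 74.2, 75.9 and 73.6 CPM in intact WT libraries.

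Not all members leaned upward in the lesioned hemisphere. The core complex III proteins Uqcrc1 (-0.01) and Uqcrc2 (-0.07), the core complex I subunit Ndufs1 (-0.09) and Ndufb2 (-0.12) were at or below 0, and the 5 small subunits of complex III were all above it (median 0.15). Across 71 members the log2 fold change went with transcript length at rho = -0.40 in the lesioned hemisphere, a description over genes of the same libraries; over all 17612 genes rho was -0.21. In the intact hemisphere the values were -0.13 for the members and -0.11 for all genes. The part of transcript length in these differences was not tested.

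**Figure D5:**
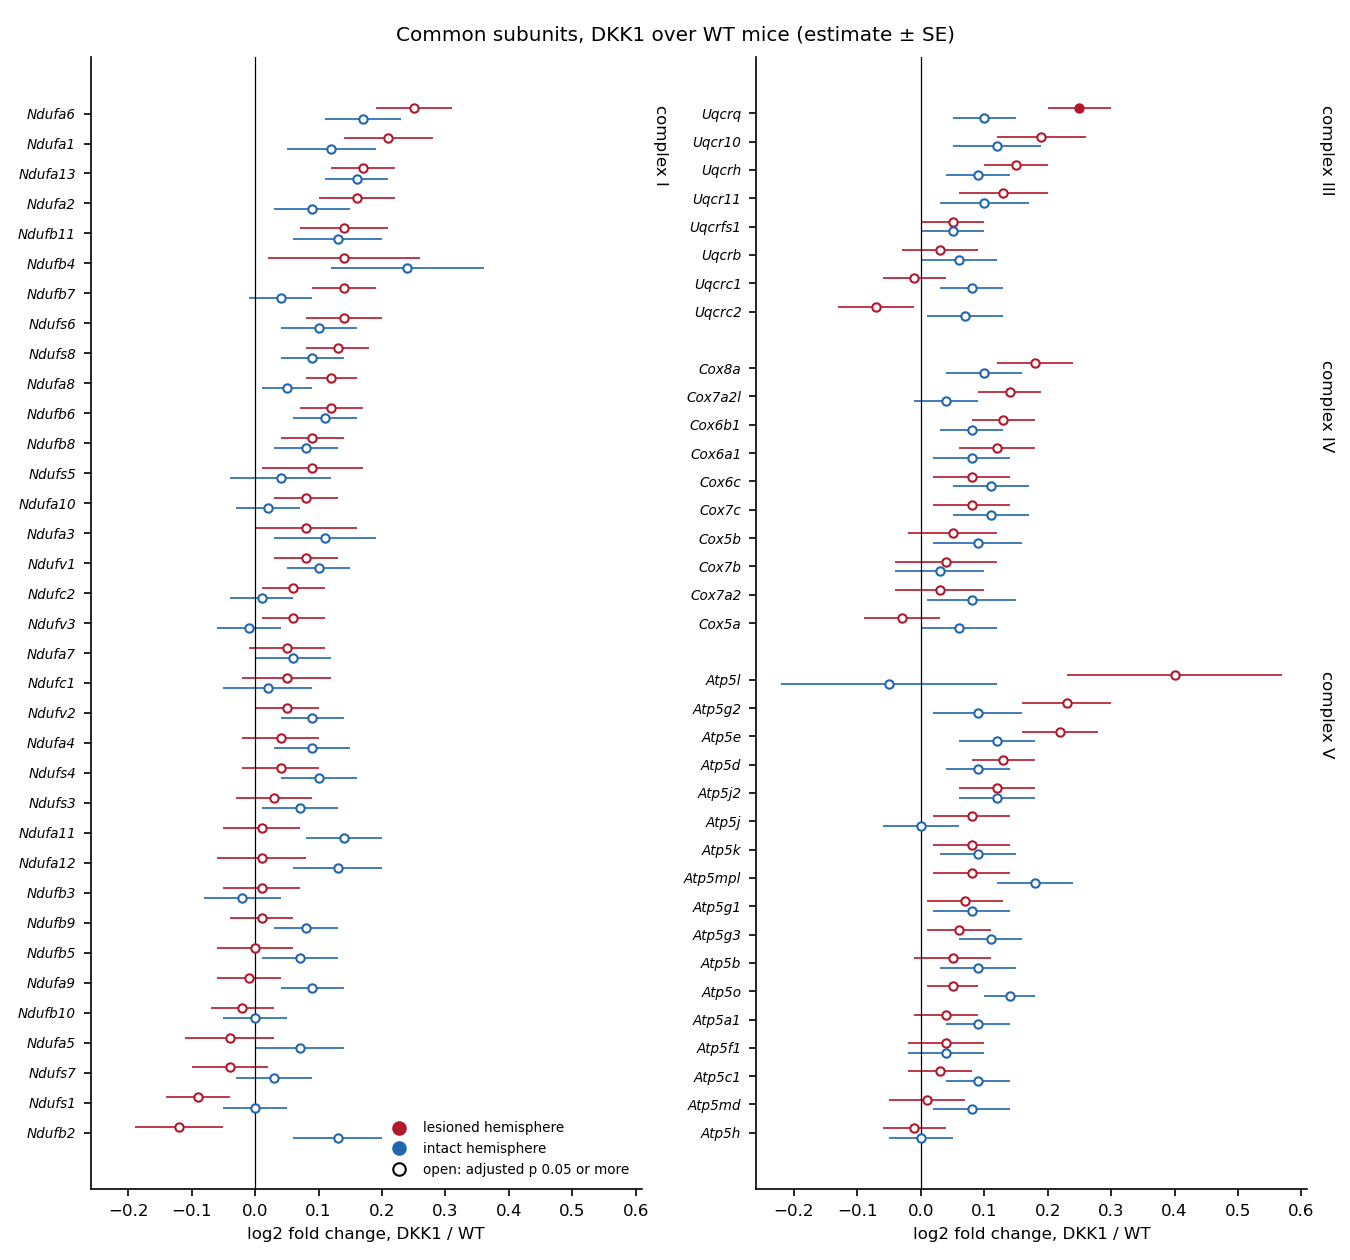
Log2 fold change of DKK1 over WT mice for the same 70 members, with 1 SE, in the lesioned (red) and intact (blue) hemisphere; filled points have an adjusted p under 0.05. Most points lie just right of 0, and Uqcrq in the lesioned hemisphere (0.25) is the one filled point.

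In both hemispheres 1 of 16 outer membrane and carrier genes was lower in DKK1 mice, the import receptor Tomm22 (-0.44 ± 0.06 in the lesioned and -0.43 ± 0.06 in the intact hemisphere, edgeR adjusted p = 0.00255 and 0.00303 in that order). Citrate cycle genes had medians of -0.03 in the lesioned and 0.04 in the intact hemisphere, and glycolysis genes 0.06 and 0.08. Neuron markers had medians of -0.01 in the lesioned and 0.05 in the intact hemisphere, with 0 calls by edgeR, DESeq2 or limma-voom in either and 4 and 0 of 15 at an unadjusted p under 0.05. In the lesioned hemisphere endothelial and mural markers were higher for 2 of 10 genes (Myh11, 0.52), lymphocyte markers for 1 of 9 in edgeR (Ms4a1, 1.53) and skeletal muscle markers for 1 of 10 (Myh1, 1.55). All 9 lymphocyte markers were above 0 (median 1.04), with 5 called higher by DESeq2 and by limma-voom and 6 at an unadjusted p under 0.05 in edgeR. All 11 microglia and macrophage markers were above 0 there (median 0.47), with 0 calls in edgeR, 1 in DESeq2 and in limma-voom, and 3 at an unadjusted p under 0.05 in edgeR. The part of these cells in the members' genotype values was not tested.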

How the data were processed

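The members and the gene lists were chosen with earlier results of these data known. Per the labels' protocols, the libraries were NEBNext Ultra II directional ones made from Qiazol-extracted RNA. The authors deposited raw counts per RefSeq transcript, 1 per gene symbol, on mm10, and a TPM table of the same libraries, per the file headers. The submitters' processing notes name STAR 2.7.0f, HOMER 4.11 and DESeq2; the sources used here do not give their roles, how reads shared with pseudogene copies were handled, or whether strand was used. For 59 of the 76 members both tables list 1 and the same transcript.

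Counts were analysed in R 4.3.3 with edgeR 4.0.16. Genes were filtered by expression (minimum count 10), which left 17612 genes and all 76 members. Libraries were scaled by TMM (factors 0.963 to 1.04), and a 4-group quasi-likelihood model was fitted (robust). A two-sided test passed at p under 0.05 after Benjamini-Hochberg adjustment across the 17612 genes. The test was checked on simulated counts. Errors of log2 fold changes are SE; n = 3 libraries a group. The library score is the median over genes of log2(CPM + 0.5), less each gene's mean in intact WT libraries. Named genes are, for each comparison and complex, up to 3 passing members with the largest change each way, or the smallest p if none passed; for the interaction, those passing or the 5 smallest p; all restricted forms with their partners; the highest and lowest level in each complex; and the largest passing change each way of each list. Genes outside this rule were named after their values were seen. Same-numbered libraries of a genotype deviated together (correlations of 0.276, 0.125 and 0.105 in DKK1 and 0.487, 0.31 and 0.297 in WT mice, prior count 2 in log2 CPM). The labels do not say why. The main model had no replicate block, so its lesion p-values treat the hemispheres as unpaired. Blocks by number were fitted as alternatives. Lesioned DKK1 library 3 correlated more with intact library 2 (0.172) than with its own number; lesioned WT library 3 with intact library 2 gave 0.152. Alternatives used DESeq2 1.42.0, limma 3.58.1 (voom, and trend on log2(deposited TPM + 0.5)), other scalings, no filter, only the 6 libraries compared, left-out libraries and replicate blocks. Overlapping genes are annotated for 21 members. Among those named above they lie on the same strand for Ndufa13, Ndufb2 and Ndufb9. Members with overlaps on the opposite strand include Atp5a1, Atp5j, Atp5l, Atp5md, Atp5o, Ndufs1, Uqcrc2 and the restricted forms Cox6a2 (with Itgad) and Ndufa4l2 (with Shmt2). Promoters came from RefSeq (GRCm38.p6), the same assembly as mm10; those of 12 members are not used here, among them Atp5a1, Atp5mpl, Cox6a2, Cox6c, Ndufa2, Ndufa4l2, Ndufb9, Ndufs1, Uqcrb, Uqcrc2 and Uqcrq. The values of 1 complex I member are not reported here.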

Additional observations from a re-analysis of the deposited data

How the results depend on the processing

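Medians of the members kept their sign in all 4 two-group comparisons under every alternative run: -0.19 to -0.12 in DKK1 lesion, -0.16 to -0.07 in WT lesion, 0.03 to 0.09 in the lesioned and 0.05 to 0.11 in the intact genotype comparison. The WT lesion median was -0.07 on the deposited TPM, the DKK1 lesion median -0.19 to -0.12 over the leave-outs, and the interaction median -0.06 to 0.02. Counts depended more on the processing, and the cause was not tested. Lower members in WT mice (16) numbered 27 with upper-quartile scaling, 10 without a filter, 29 with DESeq2, 7 on TPM, 5 with only the 6 libraries compared, 5 without both WT libraries numbered 1, 25 with a fixed and 36 with a random replicate block, and 1 to 24 over the leave-outs. Higher members there (2) numbered 1 with limma-voom, with the 6 libraries and without both WT libraries numbered 1, and 1 to 2 over the leave-outs. Lower members in DKK1 mice (30) numbered 50 with upper-quartile scaling and 14 to 44 over the leave-outs; higher ones (3) numbered 1 with upper-quartile scaling, no filter, DESeq2 and the 6 libraries, and 1 to 3 over the leave-outs. The higher member of the lesioned genotype comparison (1) became 2 with DESeq2 and limma-voom, 0 with the 6 libraries, 3 without both WT libraries numbered 1, and 0 to 2 over the leave-outs. Cox6a2 changed sign in WT mice without lesioned library 1 (-0.07; leave-outs -0.07 to 0.30) or without both libraries numbered 1 (-0.13), and in DKK1 mice without lesioned library 3 (leave-outs -0.01 to 0.17), as did Cox8b in DKK1 mice without that library (leave-outs -0.19 to 1.15). For 44 named pairs of member and comparison, 854 of 963 values kept direction and side of the threshold, 95 lost the call, 10 gained one and 4 reversed. Among these 44 pairs the replicate block changed the calls of Cox7a1 and Ndufa4l2 in DKK1 mice. Over all 76 members the fixed block added 5 calls and removed 1 in DKK1 mice and added 9 in WT mice, and the random block added 14 and 20. Counts of 3 to 93 limit what can be said of Cox8b and Cox7a1.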
